A study of Mus musculus with 32 samples.

Results

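The MHC class I genes H2-K1, H2-D1, H2-Q4, H2-Q6, H2-Q7, H2-Q10, H2-T10, H2-T22 and H2-T23 and the gene of their shared light chain, B2m, were examined in the vomeronasal organ (VNO) of 4 inbred mouse strains. These 10 genes were chosen by name from the 49671 genes of the deposited tables. All 10 passed the filter on low counts, which kept 18382 genes. RNA was measured in the VNO epithelia of 32 individual mice, 4 males and 4 females each of C57BL/6 (B6), 129, SJL and SWR. All mice were 42 days old, and the labels name no treatment and no engineered allele. The labels call the 129 mice 129S6/SVEV, whereas the paper names 129Sv/J.

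A class I molecule consists of a membrane-bound heavy chain and beta-2 microglobulin, the product of B2m, and carries peptides from inside the cell to its surface, where CD8 T cells read them. H2-K1 and H2-D1 are classical heavy chains found on most nucleated cells, while the genes of the Q and T regions encode nonclassical heavy chains with narrower roles. Interferons raise class I transcription through IRF factors and NLRC5, among others. The H2 complex is among the most variable regions between inbred strains: B6 carries the b haplotype, 129 a close relative of it, SJL the s haplotype and SWR the q haplotype.

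The 9 heavy chain genes lie on chromosome 17 of GRCm38 and B2m on chromosome 2. H2-K1 spans 33996017 to 34000347 on the minus strand, and H2-D1 spans 35262730 to 35267499 on the plus strand. Within the Q region, on the plus strand, lie H2-Q4 (35379617 to 35385290), H2-Q6 (35424850 to 35430055), H2-Q7 (35439155 to 35443773) and H2-Q10 (35470089 to 35474563). The T region holds H2-T23 (36029773 to 36032855), H2-T22 (36037128 to 36042747) and H2-T10 (36115876 to 36121465), all on the minus strand. B2m spans 122147686 to 122153083 on the plus strand. H2-T10 is annotated as a polymorphic pseudogene, a gene that is intact in some strains and not in others, and the other 9 genes as protein coding.

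The promoters of 5 abundant members are printed here for the patterns of their counts. Over all 32 libraries, the genes most like H2-K1 and H2-D1 from mouse to mouse included interferon-stimulated genes. Those most like B2m included genes of ribosomal proteins, while H2-T22 and H2-T23 were both highest in B6. Each window runs from 250 bases before to 50 bases after the transcription start, as given by RefSeq on GRCm38.p6. The windows are chr17:34000298-34000597 (minus strand) for H2-K1, chr17:35262844-35263143 (plus) for H2-D1, chr17:36042693-36042992 (minus) for H2-T22, chr17:36032652-36032951 (minus) for H2-T23 and chr2:122147437-122147736 (plus) for B2m. Capitals mark matches to a motif of the IRF type (GAAANNGAA) or of the NF-kappaB type (GGGGANTCC), searched on both strands.
H2-K1: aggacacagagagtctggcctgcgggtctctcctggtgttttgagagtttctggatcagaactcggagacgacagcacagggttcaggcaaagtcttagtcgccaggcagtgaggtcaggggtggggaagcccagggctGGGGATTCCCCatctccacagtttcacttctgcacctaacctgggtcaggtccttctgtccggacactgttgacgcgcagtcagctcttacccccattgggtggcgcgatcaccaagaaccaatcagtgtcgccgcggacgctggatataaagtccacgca
H2-D1: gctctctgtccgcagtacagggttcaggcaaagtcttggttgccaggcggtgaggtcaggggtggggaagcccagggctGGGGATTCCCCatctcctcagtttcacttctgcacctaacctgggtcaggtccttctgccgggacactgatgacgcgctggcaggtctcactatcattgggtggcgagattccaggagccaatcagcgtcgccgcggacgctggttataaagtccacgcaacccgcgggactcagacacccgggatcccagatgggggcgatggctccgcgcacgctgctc
H2-T22: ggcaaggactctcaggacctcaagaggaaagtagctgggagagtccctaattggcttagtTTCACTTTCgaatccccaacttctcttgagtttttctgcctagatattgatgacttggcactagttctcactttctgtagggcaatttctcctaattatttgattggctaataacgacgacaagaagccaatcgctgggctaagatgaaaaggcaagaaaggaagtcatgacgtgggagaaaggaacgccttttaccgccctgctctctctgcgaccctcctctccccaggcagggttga
H2-T23: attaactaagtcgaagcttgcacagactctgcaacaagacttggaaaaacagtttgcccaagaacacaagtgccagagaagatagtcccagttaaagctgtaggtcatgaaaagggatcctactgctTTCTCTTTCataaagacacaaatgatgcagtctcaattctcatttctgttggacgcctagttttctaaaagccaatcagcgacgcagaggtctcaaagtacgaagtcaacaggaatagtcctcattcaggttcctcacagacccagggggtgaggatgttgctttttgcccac
B2m: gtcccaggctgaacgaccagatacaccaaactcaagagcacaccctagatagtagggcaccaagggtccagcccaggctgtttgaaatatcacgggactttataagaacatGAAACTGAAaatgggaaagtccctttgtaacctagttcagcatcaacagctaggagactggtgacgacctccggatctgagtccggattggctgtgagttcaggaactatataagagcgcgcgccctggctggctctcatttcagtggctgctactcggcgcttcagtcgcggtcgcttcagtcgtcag

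Both classical genes, H2-K1 and H2-D1, held a pair of overlapping NF-kappaB-type matches, 1 on each strand, and no IRF-type match to these letters. H2-T22, H2-T23 and B2m each held 1 IRF-type match and no NF-kappaB-type match, beginning at positions -190, -123 and -139 from the start. Among the other members with an entry, H2-Q6, H2-Q7 and H2-Q10 held an NF-kappaB-type match and H2-Q4 held neither. Of 32851 promoter windows, 8.56% held the IRF-type and 1.19% the NF-kappaB-type letters. The letters CCAAT, which 37.4% of windows hold, were present in those of all 5 printed genes. These are matches of letters in the B6 reference and not measured binding sites. Only these exact letters were searched, so variants of a motif in spacing or bases would be missed. The windows of H2-K1, H2-D1, H2-Q4, H2-Q6, H2-Q7 and H2-Q10 all hold tttcacttc, which the search did not count. Nor did it count gggaaagtccc in the window of B2m or ggggatttccc in that of H2-Q4.

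Levels are given as deposited normalized counts, in which the read count of a gene is divided by the size factor of its library. Levels of different genes are compared only as reads per kilobase of exon, scaled to the gene reads of the library (RPKM). Library depth was 5106398 to 18640871 reads on genes (median 11461344), and none of the 48 pairs of libraries within a group of strain and sex matched within sampling noise. Of the markers of mature vomeronasal sensory neurons, Omp, Gnai2, Gnao1, Xntrpc and Adcy2 were present in every strain, and Trpc2 was listed at 0. Omp alone had normalized counts of 14490 to 23290. The summed markers had medians of 26080 (B6), 32170 (129), 29570 (SJL) and 30960 (SWR).

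Some libraries stood apart in genes that bear on class I. The library of 129 male replicate 1 had a summed count of 5111 over 20 interferon-stimulated genes, against 2631 to 3265 in the other 129 mice. Its sum over 5 leukocyte markers was 545, against 210 to 386. It also had 11.0 rpm (reads scaled by library depth) on gene families of other tissues, against 0.383 to 2.26. Of the 174 genes of these families, 166 had 0 reads in every 129 mouse. The library of B6 female replicate 1 had an interferon-stimulated sum of 9949, against 6308 to 7840 in the other B6 mice, and an endothelial marker sum of 553, against 233 to 388. The library of SJL male replicate 1 had an interferon-stimulated sum of 7787, against 4173 to 5258 in the other SJL mice, and the highest H2-K1 and H2-D1 counts of its strain. The libraries of B6 female replicates 2 and 4 had 21.9 and 20.8 rpm on gene families of other tissues, against 1.93 to 8.76 in the other B6 mice. Results that change without B6 female replicate 1 and 129 male replicate 1, or without all 5 of these libraries, are given with and without them. Leaving out all 5 was chosen after the data were seen.

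The strains were compared in pairs by edgeR's quasi-likelihood F test of the deposited counts, with sex as a covariate and p-values adjusted over the 18382 genes by the method of Benjamini and Hochberg (FDR). A gene was called differentially expressed (DE) between a pair of strains with a log2 fold change (LFC) above 1 or below -1 and an FDR under 0.05. All 10 members differed among the 4 strains with an FDR under 0.05, as did 72.8% of all genes tested. The reads of all strains were placed on the B6 genome and only uniquely placed reads were counted. Thus, fewer transcripts and fewer reads placed because an allele differs from B6 cannot be told apart for any of these genes. Reads of genes that the B6 genome lacks could also be placed on a member and raise its count, which was not tested. In this bulk tissue, fewer cells of a type and less RNA per cell cannot be told apart either.

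**Figure D1:**
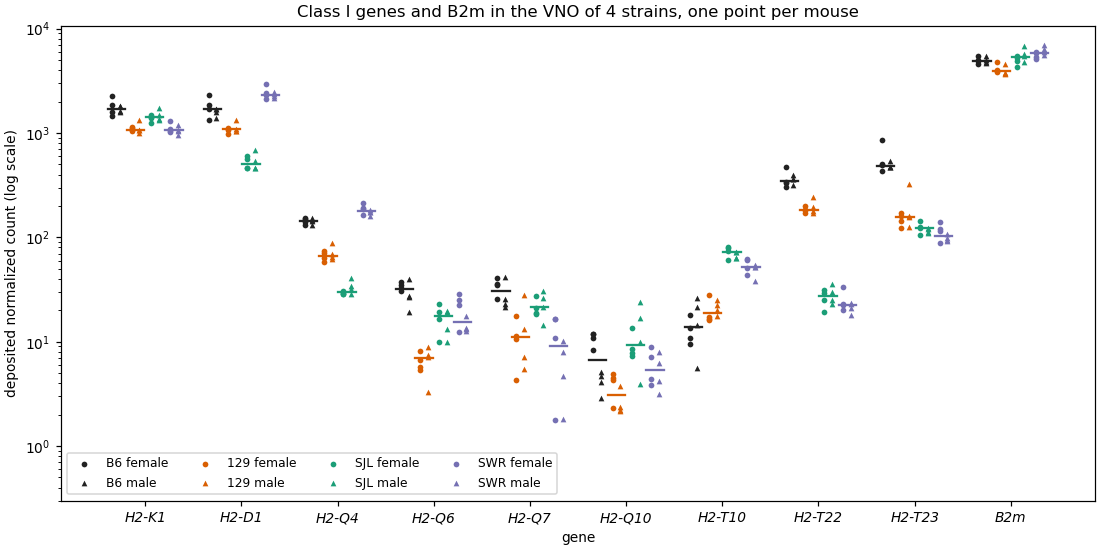
Deposited normalized counts (log axis) of the 10 members, 1 point per mouse, circles for females and triangles for males, with the median of the 8 mice of each strain as a line. H2-D1 and H2-Q4 were highest in SWR and lowest in SJL, H2-T22 had a median of 347.5 in B6 and of 27.18 and 22.59 in SJL and SWR, and B2m stayed between 3703 and 7047.

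H2-K1, a classical heavy chain, differed among the strains by less than 2-fold. In B6 its lowest, median and highest normalized counts were 1451, 1710 and 2248, and in 129 they were 1005, 1072 and 1320. In SJL they were 1242, 1419 and 1743, and in SWR 947.5, 1060 and 1307. Every B6 mouse was above every 129 and SWR mouse, while the SJL mice overlapped all other strains. The largest difference was that of SWR against B6, with an LFC of -0.69 (SE 0.07, edgeR FDR 1.41e-09), and H2-K1 was DE in no pair. The neighbours in the order of strains, 129 and SWR, were not separated (LFC of SWR vs 129 -0.03, SE 0.07, FDR 0.818).

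H2-D1, the other classical heavy chain, was high in SWR and low in SJL. Its lowest, median and highest counts were 1319, 1687 and 2295 in B6 and 984.9, 1081 and 1321 in 129. SJL mice had 463.0, 501.6 and 685.1, and SWR mice 2119, 2339 and 2952. The SJL mice were all below those of any other strain, the SWR range overlapped only that of B6, and the highest 129 mouse, male replicate 1, reached the lowest B6 mouse. H2-D1 was DE between SWR and SJL with an LFC of 2.16 (SE 0.09, edgeR FDR 8.78e-19). It was lower in SJL than in B6 (LFC -1.67, SE 0.09, FDR 4.16e-16) and than in 129 (LFC -1.05, SE 0.09, FDR 5.25e-11), and higher in SWR than in 129 (LFC 1.11, SE 0.09, FDR 5.99e-12).

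By the reads placed on the B6 genome, the balance of the classical genes therefore differed among strains. The part of allele differences in it was not tested. The ratio of H2-D1 to H2-K1 per length (RPKM) was 1.10 ± 0.0685 in B6 and 1.13 ± 0.0381 in 129 (SD, n = 8 each), while it was 0.419 ± 0.0327 in SJL and 2.49 ± 0.107 in SWR. Within a strain the ratio ranged from 0.377 to 0.475 over the 8 SJL mice and from 2.36 to 2.63 over the 8 SWR mice. Per length, H2-D1 stood at 58.8 ± 9.35 RPKM in B6 and at 18.3 ± 2.93 in SJL, and H2-K1 at 53.3 ± 6.72 and 43.6 ± 4.5. These 2 genes were the most abundant heavy chains per length in every strain.

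Of all stretches of read length in its transcripts, 2.62% of those of H2-D1 were also present in transcripts of other genes on the same strand, mostly H2-Q1, and 0.07% of those of H2-K1. Reads that fall wholly on such stretches are not counted.

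In the Q region, the nonclassical heavy chain gene H2-Q4 separated all 4 strains. The lowest, median and highest mouse had counts of 130.4, 144.7 and 152.6 in B6 and 57.56, 66.48 and 87.97 in 129. SJL mice had 28.4, 29.94 and 40.71, and SWR mice 158.6, 178.2 and 212.1. The 4 strains formed separate ranges, in the order SWR, B6, 129 and SJL, which is also the order of H2-D1. H2-Q4 was 5.67-fold higher in SWR than in SJL (LFC 2.5, SE 0.09, edgeR FDR 2.93e-23). The step from B6 to SWR was small (LFC 0.31, SE 0.08, FDR 0.00154), and all other pairs differed by an LFC beyond 1 in either direction.

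H2-Q6 and H2-Q7 encode the heavy chains of Qa-2, a lipid-anchored nonclassical molecule, and their transcripts are alike. Of the stretches of read length in H2-Q6, 7.19% were shared with H2-Q7, and 8.53% of those of H2-Q7 with other genes. Read pairs that cannot be placed uniquely because of these stretches are counted for neither gene, so that the counts of both genes are uncertain. H2-Q6 had lowest, median and highest counts of 19.32, 31.88 and 39.55 in B6 and of 3.278, 6.947 and 8.857 in 129. In SJL these were 9.85, 17.75 and 23.18, and in SWR 12.38, 15.6 and 28.43. All 129 mice lay below all mice of the other strains, and the reads behind the 129 values numbered 3 to 9 per library. The LFC of 129 against B6 was -2.23 (SE 0.22, edgeR FDR 1.12e-10).

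H2-Q7 was likewise highest in B6, with lowest, median and highest counts of 21.43, 30.35 and 41.58. It had 4.264, 10.98 and 28.08 in 129, 14.39, 21.47 and 30.37 in SJL, and 1.769, 9.063 and 16.59 in SWR. Every SWR mouse was below every B6 mouse, and the other strains overlapped both. H2-Q7 was lower in SWR than in B6 (LFC -1.87, SE 0.33, edgeR FDR 1.4e-05) and than in SJL (LFC -1.41, SE 0.33, FDR 0.000892). It was lower in 129 than in B6 with an LFC of -1.31 (SE 0.31, FDR 0.000602). The LFC of SJL against 129 was 0.85 (SE 0.31, FDR 0.0296), below the fold limit, and without 129 male replicate 1 it was 1.2 and called. The summed count of H2-Q6 and H2-Q7 was 62.3 ± 13.4 (B6), 18.8 ± 8.14 (129), 38.6 ± 8.63 (SJL) and 27.0 ± 11.9 (SWR).

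H2-Q10, whose product is secreted by the liver, was near the lower limit of detection. Counts (lowest, median and highest) were 2.861, 6.7 and 11.94 in B6, 2.186, 3.063 and 4.942 in 129, 3.94, 9.265 and 24.01 in SJL, and 3.139, 5.358 and 8.878 in SWR. The strains overlapped. H2-Q10 was higher in SJL than in 129 (LFC 1.76, SE 0.35, edgeR FDR 8.81e-05). The calls of 129 against B6 (LFC -1.06, SE 0.37, FDR 0.0174) and of SWR against SJL (LFC -1.07, SE 0.32, FDR 0.0083) both fell short of the fold limit with single libraries left out. The first had an LFC of -0.94 without B6 female replicate 1, -0.92 without B6 female replicate 3 and -0.99 without 129 female replicate 1. The second had -0.93 without SJL male replicate 1, -0.82 without SJL male replicate 4, and between -1.0 and -0.98 without SWR female replicate 3, SWR female replicate 4 or SWR male replicate 2.

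In the T region, H2-T22 and H2-T10 encode closely related nonclassical molecules that are recognised by gamma delta T cells and carry no peptide. H2-T22 showed the largest differences of all members. Its lowest, median and highest counts were 307.0, 347.5 and 477.5 in B6 and 171.6, 183.0 and 243.3 in 129. In SJL the same values were 19.33, 27.18 and 35.46, and in SWR 18.05, 22.59 and 33.17. B6 mice, 129 mice and the mice of SJL and SWR together formed 3 separate ranges. The LFC of SWR against B6 was -3.99 (SE 0.11, edgeR FDR 8.16e-27) and that of SJL against B6 -3.73 (SE 0.11, FDR 3.35e-26), while SWR and SJL did not differ beyond their spread (LFC -0.26, SE 0.14, FDR 0.159).

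H2-T10 ran the other way. The lowest, median and highest mouse had counts of 5.59, 13.98 and 26.37 in B6 and 15.99, 18.71 and 27.91 in 129. SJL mice had 60.05, 72.55 and 80.87, and SWR mice 38.07, 51.97 and 61.61. The mice of SJL and SWR were all above those of B6 and 129. The LFC of SJL against B6 was 2.22 (SE 0.18, edgeR FDR 1.22e-12) and that of SWR against B6 1.76 (SE 0.19, FDR 6.32e-10), and B6 and 129 were not separated (LFC of 129 vs B6 0.42, SE 0.20, FDR 0.0765).

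The median ratio of H2-T22 to H2-T10 per length (RPKM) was 24.99 in B6 (13.64 to 65.1) and 9.73 in 129 (6.55 to 11.59). It was 0.395 in SJL (0.260 to 0.563) and 0.450 in SWR (0.334 to 0.601). The B6 ratio is uncertain, as H2-T10 had only 5 to 26 reads per B6 library. The summed count of both genes was 375 ± 52.9 (B6), 211 ± 26.0 (129), 98.0 ± 9.24 (SJL) and 74.7 ± 10.4 (SWR) (SD, n = 8). In the B6 reference, 2.33% of the stretches of read length in H2-T10 were also present in H2-T22. Between which of these genes reads of the SJL and SWR alleles were placed was not tested. Stretches of the opposite strand were shared more widely, as 21.4% of those of H2-T10 and 22.9% of those of H2-T22 occurred in the opposite-strand genes A930015D03Rik and BC023719, which the stranded counting kept separate. These RNAs were looked at after the values of the members were seen.

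BC023719 had 0 to 2 reads per library in B6 and 0 or 1 in 129, but 61 to 119 in SJL and 53 to 107 in SWR. Against a floor of 3 reads per library, it was at least 21.3-fold higher in SJL than in B6 and at least 26.4-fold higher in SWR than in 129. Its pattern followed that of H2-T10 and was opposite to that of H2-T22. A930015D03Rik had mean normalized counts of 19.4 ± 6.13 (B6), 46.7 ± 11.0 (129), 29.3 ± 4.6 (SJL) and 34.2 ± 5.69 (SWR), and was higher in 129 than in B6 (LFC 1.24, SE 0.17, edgeR FDR 1.05e-07).

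H2-T23 encodes Qa-1, which presents leader peptides of other class I chains to the CD94 and NKG2 receptors of NK cells. It was higher in B6 than in any other strain. Counts (lowest, median and highest) were 434.5, 485.3 and 849.5 in B6 and 122.1, 158.4 and 325.7 in 129. In SJL these were 104.3, 121.6 and 143.0, and in SWR 87.87, 103.5 and 141.0. Every B6 mouse lay above every mouse of the other strains, and the highest values of B6 and 129 came from B6 female replicate 1 and 129 male replicate 1. The LFC against B6 was -1.62 in 129 (SE 0.15, edgeR FDR 2.62e-10), -2.14 in SJL (SE 0.16, FDR 1.08e-12) and -2.33 in SWR (SE 0.16, FDR 1.98e-13). SJL and SWR were not separated (LFC -0.19, SE 0.17, FDR 0.425).

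B2m was the most abundant member, and its largest strain difference was smaller than that of any heavy chain gene. Its lowest, median and highest counts were 4538, 4924 and 5494 in B6 and 3703, 3911 and 4742 in 129. Those of SJL were 4249, 5316 and 6769, and those of SWR 5110, 5882 and 7047. All SWR mice lay above all 129 mice, and the other ranges overlapped. The largest difference was that of SWR against 129, with an LFC of 0.53 (SE 0.07, edgeR FDR 7.37e-08), so that B2m was DE in no pair. B6 and SJL (FDR 0.325) and SJL and SWR (FDR 0.102), neighbours in the order of levels, were not separated. Per length, B2m reached 403 ± 37.8 RPKM in 129 and 597 ± 51.6 in SWR, above every heavy chain gene.

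**Figure D2:**
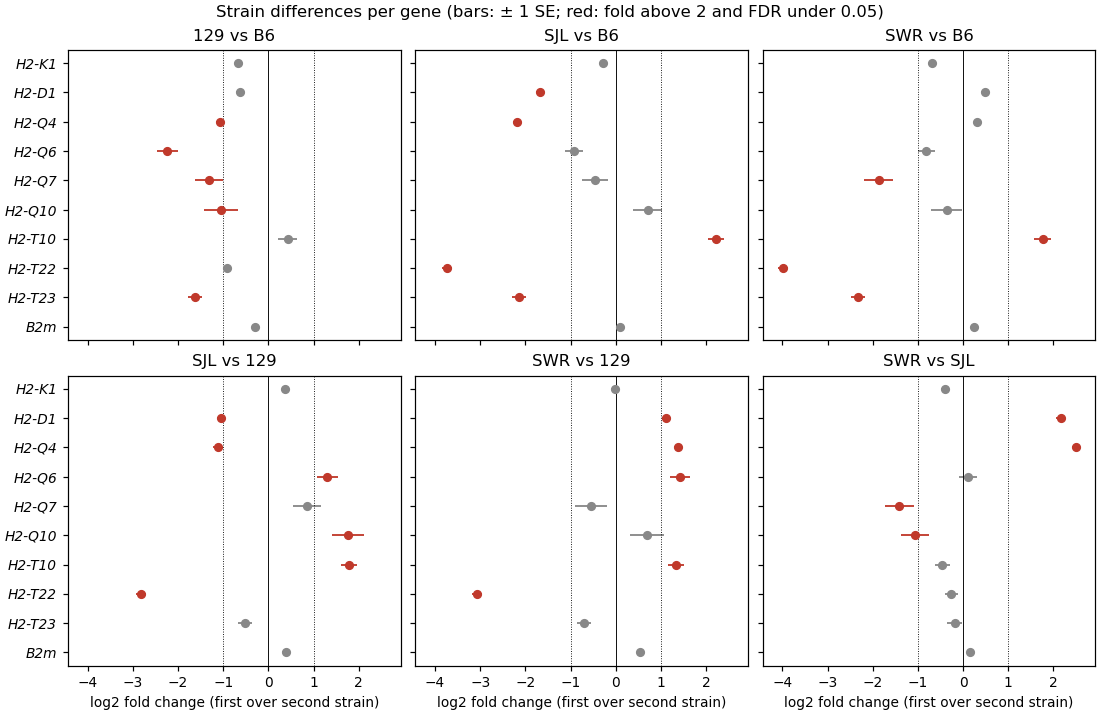
LFC of each member (first strain over second) from the edgeR fit in the 6 strain pairs, with bars of 1 SE and members called DE in red, dotted lines marking an LFC of -1 and 1. H2-K1 and B2m were called in no pair, and H2-T22 reached -3.99 in SWR against B6.

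By pair, the members called DE are set beside the share of all tested genes called in the same direction. In 129 against B6, 0 members were higher (2.4% of all genes) and 5 were lower (8.7%), namely H2-Q4, H2-Q6, H2-Q7, H2-Q10 and H2-T23. In SJL against B6, H2-T10 was higher (2.67%) and H2-D1, H2-Q4, H2-T22 and H2-T23 were lower (5.26%). In SWR against B6, H2-T10 was higher (2.52%) and H2-Q7, H2-T22 and H2-T23 were lower (5.42%). The B6 samples are common to these 3 pairs.

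Against 129, SJL had H2-Q6, H2-Q10 and H2-T10 higher (5.59% of all genes) and H2-D1, H2-Q4 and H2-T22 lower (2.71%). SWR had H2-D1, H2-Q4, H2-Q6 and H2-T10 higher (4.61%) and H2-T22 lower (3.05%). Between SWR and SJL, H2-D1 and H2-Q4 were higher in SWR (2.18%) and H2-Q7 and H2-Q10 higher in SJL (2.3%). With 10 members, 1 call in a direction is already a larger share than that of all genes. The members were also listed with earlier results of these data known. No conclusion about the members as a set is therefore drawn from these shares. The median LFC of the 10 members was -0.99 in 129, -0.69 in SJL and -0.52 in SWR against B6, where that of all genes was -0.02 in each. Without B6 female replicate 1 and 129 male replicate 1, the members called numbered 4 in 129 against B6 and 7 in SJL against 129, in place of 5 and 6, and were as many as before in the other 4 pairs. Without all 5 libraries that stood apart, they numbered 4 in 129 against B6, 6 in SJL against B6, 7 in SJL against 129 and 3 in SWR against SJL, and were as many as before in SWR against B6 and SWR against 129. The genes behind these differences were H2-Q6, called in SJL against B6 (LFC -1.01, edgeR FDR 0.000741), H2-Q7, called in SJL against 129 (LFC 1.09, FDR 0.00541), and H2-Q10, no longer called in 129 against B6 (LFC -0.85, FDR 0.132) and SWR against SJL (LFC -0.94, FDR 0.0287).

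The summed count of the 9 heavy chain genes was 4551 ± 713 (B6), 2673 ± 294 (129), 2269 ± 242 (SJL) and 3871 ± 399 (SWR) (SD, n = 8). Per length, the ratio of B2m to the sum of the 9 genes (RPKM) was 3.65 ± 0.572 (B6), 4.98 ± 0.681 (129), 7.78 ± 0.715 (SJL) and 4.81 ± 0.613 (SWR). The ratio was highest in SJL, where H2-D1 was lowest. H2-K1 made up a mean of 36.7% of the RPKM sum in B6 and 39.4% in 129, against 61.7% in SJL and 25.9% in SWR. The share of H2-D1 was 40.3% in B6 and 44.6% in 129, against 25.8% in SJL and 64.4% in SWR. H2-T23 held 11.2% of the RPKM sum in B6 and 6.06, 5.29 and 2.58% in 129, SJL and SWR. H2-T22 held 6.55 and 5.84% in B6 and 129 and 1.02 and 0.468% in SJL and SWR.

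**Figure D3:**
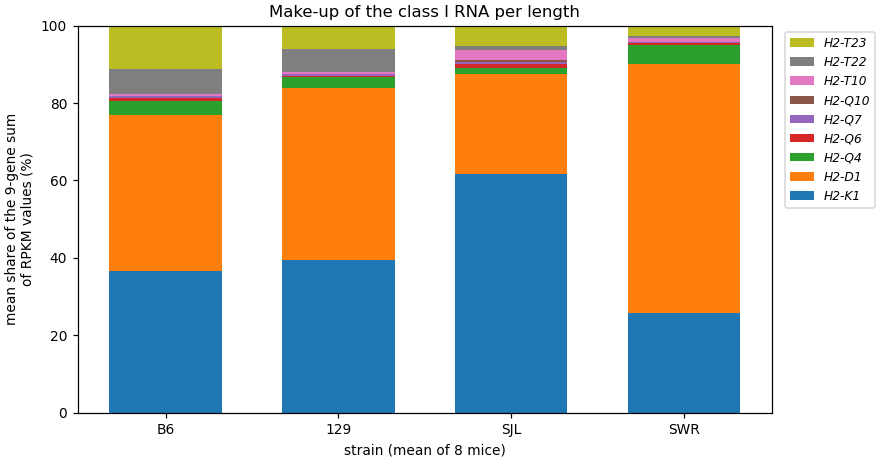
Mean share (%) of each of the 9 heavy chain genes in their summed RPKM, by strain (8 mice each). H2-K1 held 61.7% in SJL and H2-D1 held 64.4% in SWR, while in B6 they held 36.7 and 40.3%.

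The sexes were compared next. In the comparison of 16 males and 16 females with strain as a term, 0 of 10 members had an edgeR FDR under 0.05, against 0.31% of all genes, and 0 had an unadjusted p under 0.05. The smallest unadjusted p was that of H2-Q6 (0.0614, LFC of males over females -0.28, SE 0.15). The sex LFC of the abundant members was -0.01 (H2-K1), -0.04 (H2-D1), -0.05 (H2-T23) and 0.08 (B2m). In the test of whether the sex difference varied with strain, 0 of 10 members had an FDR under 0.05, against 0.0163% of all genes. H2-Q10 alone had an unadjusted p under 0.05 (0.022, FDR 0.541). The 4 B6 females had H2-Q10 counts of 8.33 to 11.9 and the 4 B6 males of 2.86 to 5.07, while the ranges of the sexes overlapped in the other strains.

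Genes that load or trim class I peptides, or regulate class I and class II transcription, were followed as a list of 21, all tested, of which 16 differed among the strains with an FDR under 0.05, beside 72.8% of all genes tested. In 129 against B6, 3 of them were lower (8.7% of all genes tested) and 0 higher (2.4%). Among these were Nlrc5, the class I transactivator (LFC -1.53, SE 0.19, edgeR FDR 1.86e-08), and Ciita, the class II transactivator (LFC -1.13, SE 0.09, FDR 1.41e-13). Ciita was higher in SJL (LFC 1.31, SE 0.09, FDR 1.47e-15) and SWR (LFC 1.16, SE 0.09, FDR 5.39e-14) than in 129. In SJL against B6, 0 of 21 were called, where 2.67% of all genes were higher and 5.26% lower. In SWR against SJL, 0 of 21 were called, where 2.18% were higher and 2.3% lower. No conclusion about the list is drawn from these counts. The median LFC of the list in 129 against B6 was -0.13, beside -0.02 for all genes.

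Nlrc5 had a median count of 87.33 in B6 (57.22 to 99.95) and of 27.56 in 129 (18.95 to 47.73), 46.15 in SJL (31.31 to 57.24) and 45.22 in SWR (28.35 to 93.59). It was higher in B6 than in any other strain by its median, as was H2-T23. The subunits of the peptide transporter, Tap1 and Tap2, differed less. Tap1 had an LFC of -0.52 in 129 against B6 (SE 0.09, FDR 6.27e-06) and Tap2 of 0.07 (SE 0.08, FDR 0.529). Psmb8, a subunit of the immunoproteasome, had an LFC of -1.0 (SE 0.12, FDR 7.24e-09), just short of the fold limit. Its median count was 195.7 in B6 and 97.55 in 129.

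Other class I genes of the H2 complex were a list of 19 symbols, of which 12 are in the table and 6 passed the filter. H2-M3, which presents formylated peptides, was lower in 129 than in B6 (LFC -1.75, SE 0.14, edgeR FDR 4.19e-13), with counts of 14.99 to 26.57 in 129 and 55.53 to 77.28 in B6. H2-Bl was higher in 129 than in B6 (LFC 2.14, SE 0.36, FDR 5.69e-06), SJL and SWR. H2-K2 was lower in SJL than in B6 (LFC -1.61, SE 0.24, FDR 1.1e-06) and lower in both SJL and SWR than in 129. H2-T-ps, a pseudogene, was higher in SJL (LFC 2.82, SE 0.29, FDR 2.67e-10) and SWR (LFC 2.72, SE 0.29, FDR 7.55e-10) than in B6, and likewise than in 129. The tested H2-Q2 and H2-T24 did not differ among the strains with an FDR under 0.05.

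Of 5 heavy chains encoded outside the H2 complex that also pair with B2m, Cd1d2, which presents lipids, was DE. It had counts of 43.71 to 60.76 in 129 against 4.165 to 13.35 in B6, an LFC of 2.56 (SE 0.26, edgeR FDR 1.61e-10), and was likewise lower in SJL and SWR than in 129. It was also lower in SWR than in SJL (LFC -1.02, SE 0.29, FDR 0.00647). Fcgrt, the neonatal Fc receptor, and Hfe, a regulator of iron uptake, had LFCs of -0.47 (SE 0.07, FDR 2.47e-06) and -0.63 (SE 0.07, FDR 3.73e-09) in 129 against B6. Cd1d1 and Mr1 had LFCs of -0.08 (SE 0.11, FDR 0.587) and 0.42 (SE 0.18, FDR 0.0528) in that pair.

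Many interferon-stimulated genes were lower in 129 than in B6, and some were lower in SJL and SWR. All 20 genes of the list were tested, and it overlaps the list of 21 in part. In 129 against B6, 14 of 20 were lower (8.7% of all genes tested) and 0 higher (2.4%). Their median LFC was -1.38, beside -0.02 for all genes. Oasl2 (LFC -2.35, SE 0.16, edgeR FDR 3.63e-13), an antiviral sensor, and Bst2 (LFC -2.28, SE 0.16, FDR 8.18e-14), which tethers virions, had the lowest values, and the others called included Gbp3, Ifit1, Ifit2, Ifit3, Igtp, Irf7, Irgm1, Isg15, Mx1, Oas1a and Rsad2. In SJL against B6, 6 of 20 were lower (5.26% of all genes), and in SWR against B6 8 of 20 (5.42%). The median LFCs were -0.74 and -0.83, beside -0.02 for all genes in both pairs.

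Against 129, 3 interferon-stimulated genes were higher in SJL (Ifit3, Irf7 and Oasl2) and 3 in SWR (Gbp3, Oas1a and Oasl2). Of all genes, 5.59% were higher in SJL and 4.61% in SWR than in 129. Between SWR and SJL, Ifit3 alone was called, with an LFC of -1.52 in SWR (SE 0.21, edgeR FDR 1.4e-06). In that pair, 2.3% of all genes were higher in SJL and 2.18% in SWR. The median of the summed counts of the 20 genes was 7111 (B6), 3022 (129), 4729 (SJL) and 4462 (SWR). SWR had a sum of H2-K1 and H2-D1 of 3477 ± 361, close to that of B6 (3433 ± 538), with a lower interferon-stimulated sum, and SJL had 1969 ± 226 with an interferon-stimulated sum near that of SWR. The part of interferon in the class I sums was not tested, nor was that of allele differences in the placed reads.

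**Figure D4:**
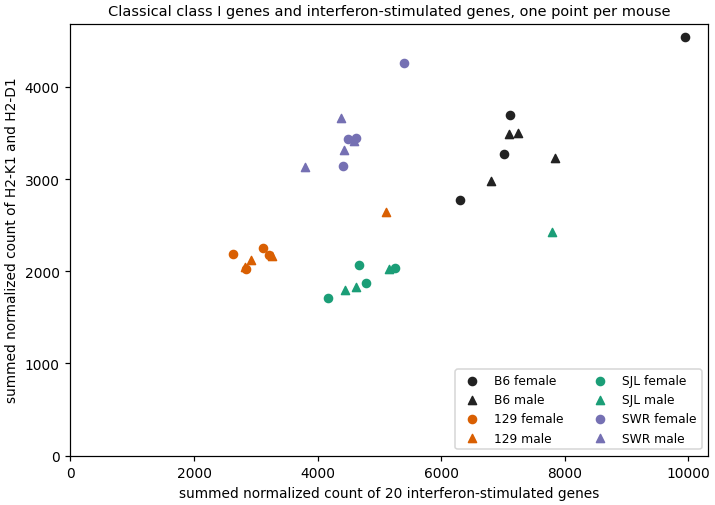
Summed normalized count of H2-K1 and H2-D1 (y axis) against that of 20 interferon-stimulated genes (x axis), 1 point per mouse. SWR mice (3135 to 4259 on the y axis) lay above SJL mice (1708 to 2428), and B6 female replicate 1 (x = 9949), 129 male replicate 1 (x = 5111) and SJL male replicate 1 (x = 7787) lay apart from their strains.

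Summed markers of immune cells were also lower in 129 than in B6, as H2-K1 and H2-T23 were, and are given as ranges with no test. The summed count of 7 macrophage markers had a range of 1362 to 1961 (B6), 573 to 866 (129), 1178 to 1631 (SJL) and 786 to 1136 (SWR). That of the 5 leukocyte markers was 436 to 777 (B6), 210 to 545 (129), 398 to 581 (SJL) and 390 to 531 (SWR). The sum over 6 T and NK cell markers was small, at 22.4 to 52.7 in B6 and 3.49 to 19.7 in 129. The 4 B cell markers summed to 5.72 to 39.5 in B6 and 2.38 to 11.2 in 129, and the 4 dendritic cell markers to 73.6 to 122 and 29.5 to 93.6. Of the latter, Siglech, a marker of plasmacytoid dendritic cells, went the other way, with counts of 6.58 to 17.2 in B6 and 19.7 to 39.3 in 129. No marker of these lists was at 0 in a whole strain. The part of these cells in the class I differences was not tested.

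The share of reads on gene families of other tissues, taken as background, had a median of 7.33 rpm in B6 and 0.880 in 129. The medians of SJL and SWR were 3.67 and 4.24 rpm. Of these 174 genes, 56 had 0 reads in every B6 mouse, 166 in 129, 84 in SJL and 85 in SWR. By these medians it was highest in B6 and lowest in 129, as were the interferon-stimulated sums, and its part in these differences was not tested.

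Within strains, H2-K1 and H2-D1 varied together from mouse to mouse. The correlation of their log2 counts after centring each strain was 0.906 over the 32 libraries, 0.858 without B6 female replicate 1 and 129 male replicate 1, and 0.815 without all 5 libraries that stood apart. All libraries share depth scaling and sequence placement, so these correlations are descriptions. After each other, the tested genes most like them were Psmb8 (0.837), Irf9 (0.796), Ifitm3 (0.790) and Zbp1 (0.789) for H2-K1, and Irf9 (0.83), Ly6e (0.814), Zbp1 (0.804) and Psmb8 (0.793) for H2-D1. Without the 2 libraries, these values were 0.646 to 0.767 for H2-K1 and 0.697 to 0.757 for H2-D1, and without all 5 they were 0.490 to 0.703 and 0.573 to 0.666. The genes were ranked over all 32 libraries only, and which are most like them without these libraries was not tested. Irf9, Ifitm3, Zbp1 and Ly6e are known interferon-stimulated genes. H2-T23 correlated with H2-K1 at 0.666, which was 0.432 without the 2 libraries and 0.546 without the 5, and H2-T22 at 0.469, which was 0.241 and 0.193.

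B2m had weaker correlations with its partners. Its correlation with the 9 heavy chain genes ranged from -0.138 (H2-T23) to 0.271 (H2-K1). Without the 2 libraries it ranged from -0.119 (H2-Q6) to 0.430 (H2-K1). Without the 5 it ranged from -0.232 (H2-Q6) to 0.459 (H2-Q4), with 0.338 for H2-K1. The genes most like it were Rpl38 (0.868), Rps28 (0.850) and Rpl21 (0.848), which encode ribosomal proteins, Trappc1 (0.853), a subunit of a vesicle tethering complex, and Tmsb4x (0.844), which encodes an actin-binding peptide. Leaving out the 2 libraries changed these values to between 0.851 and 0.869, and leaving out the 5 to between 0.885 and 0.928. H2-T10 had correlations of -0.059 to 0.191 with the other members. Without the 2 libraries these ranged from -0.007 (H2-Q10) to 0.312 (H2-K1), and without the 5 from 0.001 (H2-T22) to 0.474 (H2-D1). H2-Q6 and H2-Q7, which share sequence stretches, had a correlation of 0.473 with each other, which was 0.470 and 0.451.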

How the data were processed

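Stranded, ribodepleted total RNA libraries of the VNO epithelia of 32 individual mice were sequenced as read pairs. Per the labels, the authors used bcl2fastq, Trim Galore, STAR and DESeq2 with mm10. The deposited counts are uniquely placed reads per gene, on the strand of the gene, as the authors describe. In the deposited normalized signal, the authors scaled each library by its DESeq2 size factor. Groups came from the labels of strain and sex. The replicate number is the lane number of the label, and each lane holds 1 mouse of every group.

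The deposited counts were tested with edgeR 4.0.16 and limma 3.58.1 in R 4.3.3 (TMM, filterByExpr, robust quasi-likelihood F tests, Benjamini-Hochberg adjustment over all genes tested), with all 32 libraries in the fit and additive terms for strain and sex. SEs were derived from the LFC and the F statistic. DESeq2 1.42.0, its size factors, no filter, other thresholds, each sex alone, a replicate block and leaving out libraries were alternatives. The steps were tested on simulated data. RPKM used the union of annotated exons of GENCODE M21. Correlations used log2 of the normalized count + 1. Promoters of 9 of 10 members were found in RefSeq, H2-T10 having no entry. H2-K1 has a pair of windows, of which the first is printed.

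The members and lists were chosen with earlier results of these data known. The text names the 10 members, every gene of the lists that was called in at least 1 strain pair (except 1, which is counted in the totals and not reported here), the 5 genes most like B2m, H2-K1 and H2-D1, and markers where a result moves with them. Other genes of the lists were named after their values were seen. Depth was 5106398 to 18640871 reads per library, which limits H2-Q6, H2-Q7 and H2-Q10. Mice are separate animals, so the spread is between animals.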

Additional observations from a re-analysis of the deposited data

Results flagged for a closer look

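Among 120 groups of mice examined (each member in each strain of 8 mice, and in each group of 4 of 1 strain and sex), 15 had a highest library farther from the rest than a Dixon test at the 95% level allows. Chance gives about 1 in 20. The library of 129 male replicate 1 was the highest 129 mouse for H2-K1 (1320, others 1005 to 1138), H2-D1 (1321, others 984.9 to 1113), H2-T22 (243.3, others 171.6 to 200.2) and H2-T23 (325.7, others 122.1 to 169.4). It was also the highest of the 4 males for H2-T23, and for H2-Q10 with 3.743 (others 2.186 to 2.383). This library had the highest interferon-stimulated and leukocyte sums of its strain, and their part in these values was not tested.

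The library of B6 female replicate 1 had the highest H2-T23 count of B6 (849.5, others 434.5 to 538.5), both over the strain and over its females, and the highest H2-T22 count of the B6 females (477.5, others 307.0 to 336.0). SWR female replicate 1 was highest in SWR for H2-D1 (2952, others 2119 to 2473) and H2-T22 (33.17, others 18.05 to 23.38), and it had the highest interferon-stimulated sum of that strain, 5395.

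Other such values were single genes in single groups of 4. H2-Q6 was 17.72 in SWR male replicate 1 (others 12.69 to 13.49), and H2-T10 was 27.91 in 129 female replicate 1 (others 15.99 to 17.3). H2-T23 was 538.5 in B6 male replicate 3 (others 468.6 to 476.9), and B2m was 4605 in 129 male replicate 4 (others 3703 to 3767).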

How the results depend on the processing

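The number of members called in a strain pair kept within 1.5 times of its reported value in 246 of 252 comparisons with an alternative. Most alternatives left out a single library, often of a strain outside the pair, which can change the number little. In 129 against B6, where 5 were called, males alone gave 2, no fold limit 9 and an LFC limit of 0.5 gave 8. With no fold limit, SWR against B6 gave 9 in place of 4 and SJL against 129 gave 10 in place of 6. SWR against SJL gave 2 in females alone in place of 4. With each of the 32 libraries left out in turn, the counts ranged from 4 to 5 in 129 against B6, 6 to 7 in SJL against 129 and 3 to 4 in SWR against SJL, and stayed at 5 in SJL against B6 and SWR against 129 and at 4 in SWR against B6. All 10 members kept an FDR under 0.05 over the strains, and 0 had one for sex or the interaction. The replicate block gave 5, 5, 4, 6, 5 and 4 members in the 6 pairs, as without it. Over all tested genes, libraries of different groups with the same number did not deviate together. Their median correlation was -0.015 over 112 pairs, beside 0.010 over 336 pairs with different numbers. By this measure the numbers do not pair the mice, but it does not cover single sets of genes. The highest interferon-stimulated sum of each strain was in replicate 1: 9949 (B6 female), 5111 (129 male), 7787 (SJL male) and 5395 (SWR female). The replicate 1 libraries of the other sex had 6807, 2631, 5258 and 4379. Most of the values flagged above were also of replicate 1. The part of the lane in these values was not tested.

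Most alternatives for the LFC values likewise left out a single library, often of a strain outside the pair, which can change an LFC little. Of 2394 LFC values under alternatives, 2366 kept their direction and call. The 9 that changed sign were never called. They were H2-K1 in SWR against 129 (0.014 without B6 female replicate 1 and 129 male replicate 1, 0.025 without the 5 libraries that stood apart, 0.039 in females, and from -0.068 to 0.017 with single libraries left out, positive without 129 male replicate 1 or, at 0.011, SWR male replicate 4), H2-Q6 in SWR against SJL (-0.121 in males), H2-Q7 in SWR against 129 (0.017 in females), H2-Q10 in SJL against B6 (-0.202 in females) and B2m in SJL against B6 (-0.006 in females). In 129 against B6, males alone left H2-Q4 short of the fold limit only (-1.0, FDR 2.55e-06) and H2-Q7 short of both limits (-0.99, FDR 0.0708), and H2-Q10 did not pass the low-count filter in males. In SWR against SJL, females alone left H2-Q7 (-0.98, FDR 0.115) and H2-Q10 (-0.69, FDR 0.241) short of both limits. The cause was not tested. The ratios of strain means were the same within 1 SD on TMM-scaled CPM in all 10 cases. Depth limits H2-Q10, with 2 to 24 reads per library, most.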
